A study of Mus musculus with 6 samples.

Results

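*Trav9d-3* and *Trav9d-4* are 2 members of the mouse *Trav9* family of T cell receptor α variable genes, and they lie in the upstream part of the *Tcra* locus. They are listed as TRAV9D-3 and TRAV9D-4 in the deposited lists. They were followed here in 2 libraries of *Trav9* amplicons, 1 from WT BALB/c mice and 1 from SKG mice, which carry a hypomorphic mutation in an SH2 domain of *Zap70* on the BALB/c background. Both libraries came from thymus, from pre-selection double positive (DP) thymocytes sorted as CD4+ CD8α+ TCRβ- CD69- CD5-, and the sources used here give neither the age of the mice nor how many were pooled. According to the study's methods the template was cDNA made from RNA, while the labels name the molecule as genomic DNA. A sequence was assigned to *Trav9d-3* or *Trav9d-4* when the V assignment listed that gene alone, with any allele, and the J assignment listed a single *Traj* gene. By this rule 622626 of the 3675237 sequences of the series were taken. The WT library gave 263582 sequences of *Trav9d-3* and 138869 of *Trav9d-4*, out of 1587280. The SKG library gave 146632 and 73543, out of 739330.

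A *Tcra* gene is assembled in DP thymocytes by joining 1 of many V genes to 1 of many J segments, and the same chromosome can rearrange again. The first joins tend to use *Traj* segments at the end of the array nearest to the V genes, which carry the highest numbers, and later rounds replace them with V genes lying further upstream and *Traj* segments lying nearer to the constant region. A join is productive when it keeps the reading frame and holds no stop codon. In the deposited lists each distinct sequence stands once, so every share given below is a share of distinct sequences, not of reads or cells. With 1 library per genotype, a comparison of SKG with WT compares 2 libraries and not the genotypes. The intervals of differences below cover only the spread between sequences. Their variance was enlarged by a factor from how unevenly the productive share differed between the compared groups over segments. That factor does not measure the spread of *Traj* use itself. The threshold applied to each difference is an adjusted p of 0.05 from a comparison scaled in that way.

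Both genes map to chromosome 14, plus strand. In the C57BL/6 reference (NCBIM37, GENCODE annotation), *Trav9d-3*, annotated there as *Gm10889* (ENSMUSG00000076784.1), spans chr14:53540353-53540787. *Trav9d-4* (ENSMUSG00000090868.1) spans chr14:53603131-53603535. They are 62.3 kb apart, with 6 annotated V genes between them, and lie 1234 kb (*Trav9d-3*) and 1171 kb (*Trav9d-4*) upstream of *Traj61*. The labels name mm10 as the build, and the deposited lists hold no coordinates, so these positions serve only to describe the reference. BALB/c sequence was not read here. The 2 coding exons that the *Trav9* forward primer matches are shown as they stand in the C57BL/6 reference. The V assignment was made by IMGT/HighV-QUEST, whose reference alleles were not read here. Exon 2 of *Trav9d-3* covers chr14:53540494-53540787 (294 bases) and exon 2 of *Trav9d-4* covers chr14:53603275-53603535 (261 bases). Capitals mark the bases that differ from, or are absent in, the other gene in a global alignment of the pair.
Trav9d-3 exon 2: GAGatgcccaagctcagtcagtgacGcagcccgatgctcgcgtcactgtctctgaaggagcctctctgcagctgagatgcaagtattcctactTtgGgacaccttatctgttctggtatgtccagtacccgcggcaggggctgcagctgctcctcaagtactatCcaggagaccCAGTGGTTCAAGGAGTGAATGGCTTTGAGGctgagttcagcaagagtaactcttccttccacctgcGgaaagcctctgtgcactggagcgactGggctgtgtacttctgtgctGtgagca
Trav9d-4 exon 2: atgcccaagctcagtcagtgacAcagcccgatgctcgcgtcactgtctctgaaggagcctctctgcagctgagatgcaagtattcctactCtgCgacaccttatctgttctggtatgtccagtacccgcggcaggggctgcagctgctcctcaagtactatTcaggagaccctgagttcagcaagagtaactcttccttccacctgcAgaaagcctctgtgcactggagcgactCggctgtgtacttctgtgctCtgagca
Over 261 aligned bases the exons differed at 7, an identity of 97.3%, and *Trav9d-4* lacked a run of 30 bases that lies downstream of the primer. The bases upstream of the primer are not part of the amplicons, so only the differences downstream of it can separate the genes. The exon 2 sequences of *Trav9d-3* and *Trav9n-3* were identical over all 294 bases. *Trav9d-4* had no mismatch to *Trav9n-4* over 261 aligned bases, but these exons differed by 33 gap bases, with a longest gap of 30. *Trav9n-3* and *Trav9n-4* were hardly listed. *TRAV9N-3* was named in 15 sequences of the WT library and 7 of the SKG library, and *TRAV9N-4* in 11 and 12. *TRAV9N-2* was named more often, in 3664 WT sequences (0.231%) and 1617 SKG sequences (0.219%). Of these, 1746 and 942 listed it with *Trav9d-4* and no other gene.

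*Trav9d-3* was the more frequent of the pair in both libraries. It made up 16.6% of all WT sequences (95% Wilson interval 16.5 to 16.7) and 19.8% of SKG sequences (19.7 to 19.9). *Trav9d-4* made up 8.75% (8.71 to 8.79) and 9.95% (9.88 to 10.02). For each productive *Trav9d-3* sequence there were 0.527 of *Trav9d-4* in WT and 0.492 in SKG. These intervals cover counting error only, and PCR products without molecular identifiers are not independent molecules.

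The assignments were not equally sharp for the 2 genes. Of the sequences that listed *Trav9d-4* at all, 18.1% in WT and 15.5% in SKG listed other genes beside it, most often *Trav9-3* (15002 and 6260 sequences) or *Trav9-4* (9673 and 4356). For *Trav9d-3* the corresponding shares were 0.761% and 0.870%. Only 680 WT and 541 SKG sequences listed both members of the pair. Sequences assigned to the wrong member alone would not appear in these numbers and were not measured. All 263582 WT and 146632 SKG sequences of *Trav9d-3* were listed as TRAV9D-3*01. *Trav9d-4* was listed as TRAV9D-4*01 except for 18 WT sequences and 1 SKG sequence of allele 04. The *Traj* alleles were shared by the pair too. *Traj32* was allele 02 in 99.88% to 99.98% of sequences and *Traj35* allele 02 in 99.4% to 99.7%, over the 4 combinations of gene and library. *Traj31* was listed as allele 02 alone in 74.2% (WT *Trav9d-3*), 74.7% (WT *Trav9d-4*), 73.9% (SKG *Trav9d-3*) and 67.0% (SKG *Trav9d-4*). Allele 01 alone was listed for 14.6% of SKG *Trav9d-4* joins to *Traj31*, against 9.61% in WT *Trav9d-3*, 9.67% in WT *Trav9d-4* and 7.57% in SKG *Trav9d-3*. These allele shares were not tested.

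Among productive sequences both V genes reached the whole *Traj* array, and each joined 43 segments in each library. There were 160887 (WT) and 102739 (SKG) productive sequences of *Trav9d-3* and 84758 and 50540 of *Trav9d-4*, so 3 sequences correspond to shares between 0.00186% and 0.00594%. The most used segments largely overlapped. In WT, *Trav9d-3* joined most often to *Traj4* (5.81%), *Traj15* (4.87%) and *Traj32* (4.34%), and *Trav9d-4* to *Traj18* (5.29%), *Traj4* (5.12%) and *Traj32* (4.83%). In SKG, *Trav9d-3* joined most often to *Traj4* (5.999%), *Traj15* (5.09%) and *Traj12* (5.04%), and *Trav9d-4* to *Traj26* (5.44%), *Traj15* (5.38%) and *Traj4* (5.35%). No segment held more than 5.999% of an arm, so neither gene was dominated by a single join.

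**Figure D1:**
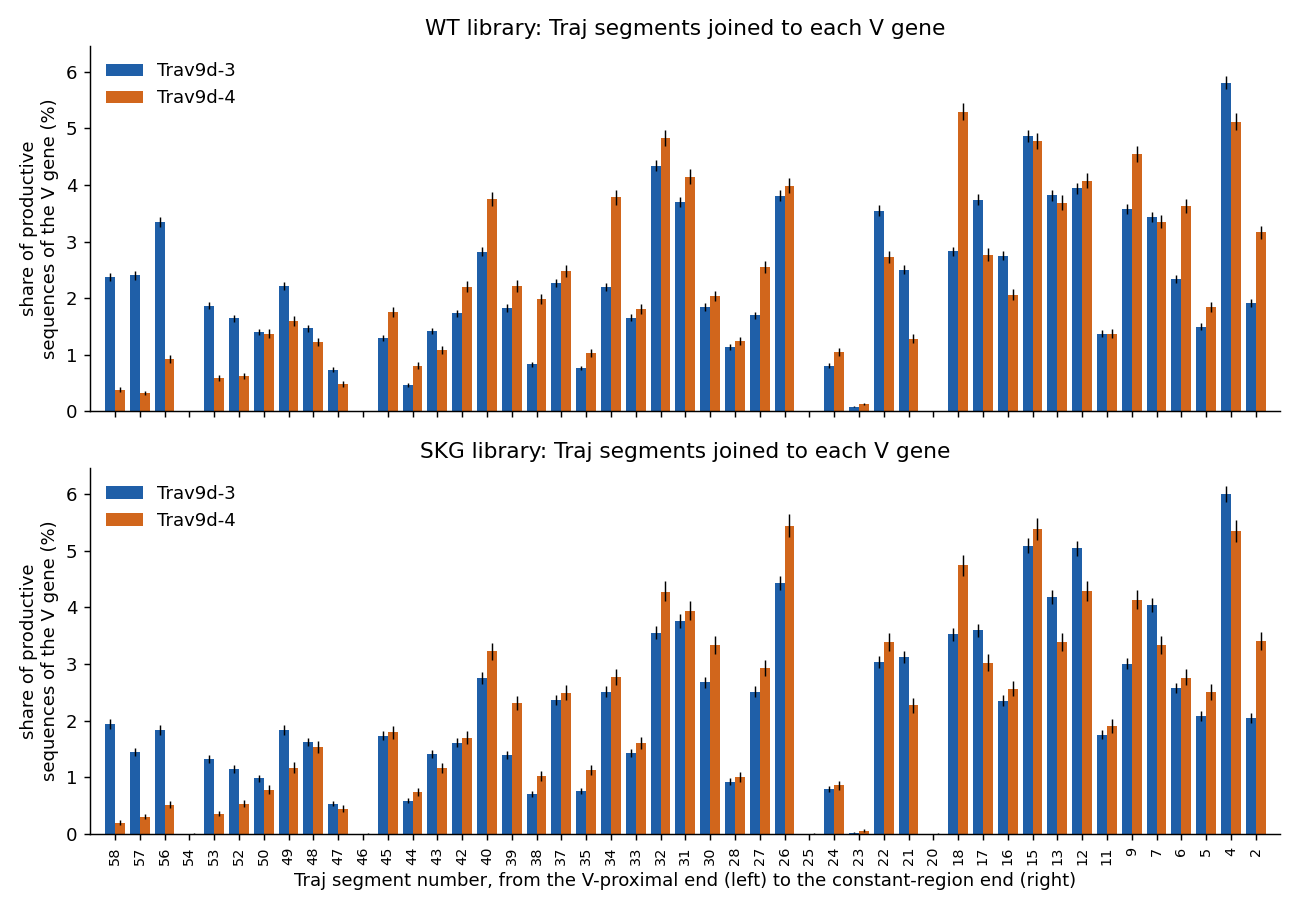
Share of productive sequences (%, vertical axis) joined to each *Traj* segment (horizontal axis, highest number at the left) for *Trav9d-3* and *Trav9d-4* in the WT library (top) and the SKG library (bottom). Bars are shares and lines are 95% Wilson intervals, which cover counting error only. At *Traj58*, *Traj57*, *Traj56*, *Traj53* and *Traj52* the *Trav9d-4* bars are the lower ones in both libraries, for example 0.387% against 2.37% at *Traj58* in WT.

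The largest difference between the genes over blocks of segments lay at the V-proximal end of the array. *Traj51* to *Traj61*, of which 5 segments had productive sequences, held 11.6% of WT *Trav9d-3* joins (11.5 to 11.8) and 2.84% of WT *Trav9d-4* joins (2.73 to 2.96). In SKG they held 7.67% (7.51 to 7.84) and 1.90% (1.79 to 2.03). The difference of *Trav9d-4* minus *Trav9d-3* was -8.79 points in WT (SE 0.759, 95% interval -10.3 to -7.30) and -5.77 points in SKG (SE 0.407, interval -6.57 to -4.97). Both passed the threshold after adjustment over 30 tests on blocks of segments, in quasi-binomial comparisons with the variance scaled by the factor from productive shares. The gene by genotype term was 0.0489 on the log odds scale (SE 0.253, interval -0.446 to 0.544), and it did not pass. The tests on blocks were added after the values had been seen.

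All 5 segments contributed. Their sequences are shown for the 4 with the lowest ratios in both libraries, with 2 segments more used by *Trav9d-4* below them, all on the plus strand of NCBIM37 chromosome 14. Capitals mark the match to TTNGGNNNNGGN, which encodes the conserved motif of J segments (N is any base). The motif was searched on the sense strand and was found in 45 of 59 annotated *Traj* segments (76.3%).
Traj58, chr14:54776955-54777017: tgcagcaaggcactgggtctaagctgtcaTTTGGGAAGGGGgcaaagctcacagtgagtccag
Traj57, chr14:54778180-54778244: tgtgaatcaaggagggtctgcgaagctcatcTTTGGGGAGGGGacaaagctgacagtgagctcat
Traj56, chr14:54778938-54779000: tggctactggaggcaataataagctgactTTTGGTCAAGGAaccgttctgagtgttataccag
Traj53, chr14:54782319-54782384: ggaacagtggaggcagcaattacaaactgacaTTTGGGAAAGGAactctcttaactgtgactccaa
Traj18, chr14:54820452-54820517: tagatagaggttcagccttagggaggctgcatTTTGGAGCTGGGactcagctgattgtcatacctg
Traj2, chr14:54837511-54837576: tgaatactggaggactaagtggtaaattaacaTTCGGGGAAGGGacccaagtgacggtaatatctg

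*Traj58*, among the first segments used, held 2.37% of *Trav9d-3* and 0.387% of *Trav9d-4* joins in WT, and 1.94% and 0.196% in SKG. The log2 ratio of *Trav9d-4* to *Trav9d-3* was -2.62 (scaled SE 0.64) in WT and -3.30 (0.59) in SKG. *Traj57* held 2.40% and 0.319% in WT, and 1.44% and 0.299% in SKG, with log2 ratios of -2.91 (0.70) and -2.27 (0.49). *Traj56* held 3.35% and 0.924% in WT, and 1.83% and 0.518% in SKG, with ratios of -1.86 (0.42) and -1.82 (0.37). The *Trav9d-4* share was thus below the *Trav9d-3* share by more than 3 scaled SE in each library at these 3 segments. At *Traj53* the ratios were -1.66 (0.54) and -1.88 (0.45), and at *Traj52* -1.40 (0.53) and -1.10 (0.38).

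Unproductive sequences, which encode no receptor chain, also had the lower share in *Trav9d-4* at all 5 segments, with ratios closer to 0 at *Traj52* (-0.27 in WT and -0.71 in SKG). Their other log2 ratios were -2.91 in WT and -3.40 in SKG at *Traj56*, -2.80 and -2.50 at *Traj57*, -4.66 and -1.55 at *Traj58*, and -1.18 and -2.20 at *Traj53*. No SE was computed for these ratios, and some rested on few unproductive sequences. In SKG, for example, 262 of 314 *Trav9d-4* sequences at *Traj56* and 180 of 231 at *Traj53* were productive. The difference of the *Traj51* to *Traj61* share among unproductive sequences was -10.2 points in WT (SE 0.994) and -5.77 points in SKG (SE 0.629). Over the whole array the productive and unproductive log2 ratios were less alike. In WT they had Pearson's r of 0.758 and Spearman's rho of 0.327 over 43 segments, 28 with the same sign. In SKG these values were 0.805 and 0.579 over 42 segments, 31 with the same sign.

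Of the 43 segments with at least 50 productive sequences of each gene in the WT library, 15 (34.9%) differed at least 1.5-fold between the genes, 8 (18.6%) with a higher and 7 (16.3%) with a lower share in *Trav9d-4*. In the SKG library 8 of 42 did (19%), 2 (4.76%) with a higher and 6 (14.3%) with a lower share. There were 6 segments past this fold in both libraries, and all 6 went the same way, 1 higher and 5 lower in *Trav9d-4*. The 1 higher segment was *Traj2*, the last segment before the constant region with productive joins, with shares of 1.91% and 3.16% in WT and 2.05% and 3.40% in SKG (log2 ratio 0.73 in each). Across 42 segments the log2 ratios of the libraries had Pearson's r of 0.920 and Spearman's rho of 0.793, and 37 had the same sign. The segments of an arm share 1 library and their shares sum to the whole, so this is a description.

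**Figure D2:**
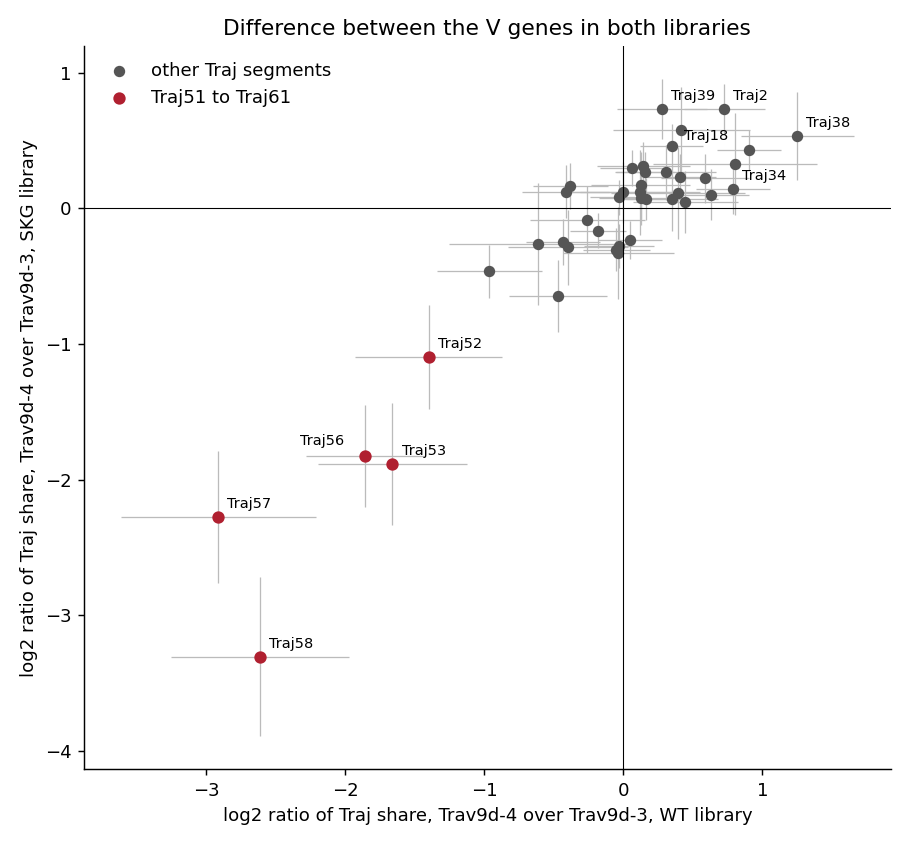
Log2 ratio of the *Traj* share in *Trav9d-4* to that in *Trav9d-3*, in the WT library (horizontal axis) and in the SKG library (vertical axis), 1 point per *Traj* segment with at least 50 productive sequences of each gene. Lines are standard errors scaled by the factor from productive shares. The 5 segments of *Traj51* to *Traj61* lie apart at the lower left, between -1.40 and -2.91 in WT and between -1.10 and -3.30 in SKG.

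Of the other blocks, *Traj31* to *Traj40* was the only 1 in which the genes differed past the adjusted threshold. *Traj31* to *Traj40* held 20.4% of *Trav9d-3* and 25.99% of *Trav9d-4* joins in WT (difference 5.60 points, SE 1.40). In SKG they held 19.2% and 22.8% (3.55 points, SE 0.883), and both differences passed the adjusted threshold. *Traj1* to *Traj10* held 18.5% and 21.6% in WT (3.09 points, SE 1.33) and 19.8% and 21.5% in SKG (1.73 points, SE 0.873), and neither passed after adjustment. In the blocks *Traj11* to *Traj20*, *Traj21* to *Traj30* and *Traj41* to *Traj50* the genes differed by between -1.01 and 1.76 points, and no difference passed the adjusted threshold.

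**Figure D3:**
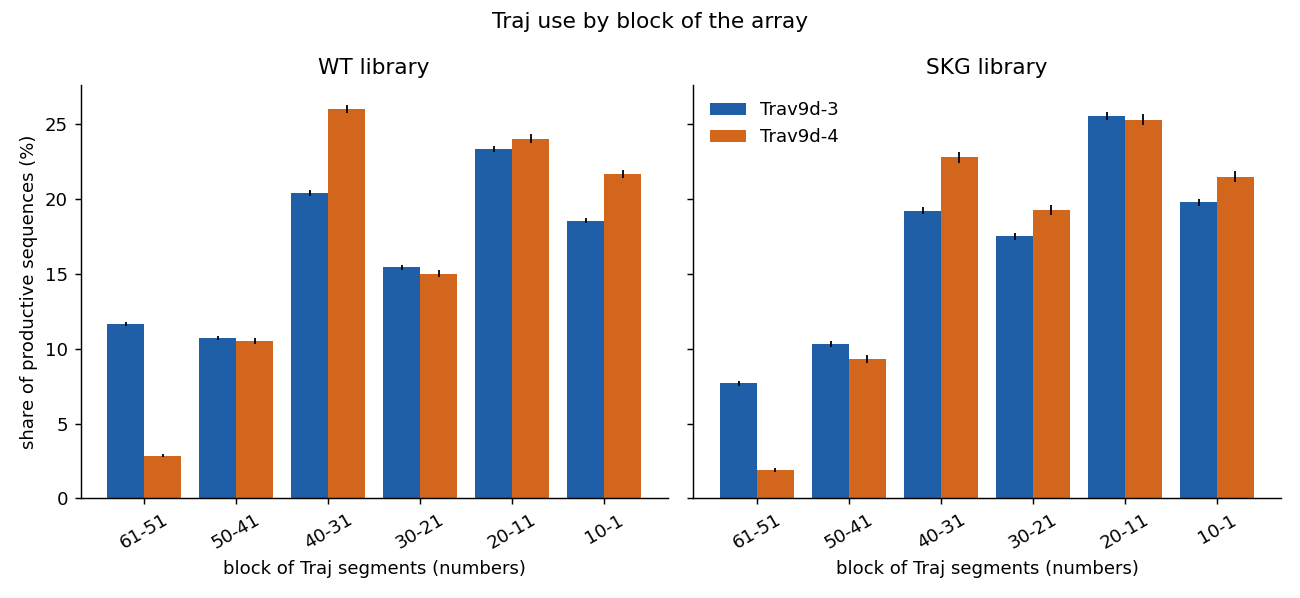
Share of productive sequences (%, vertical axis) in 6 blocks of *Traj* segments (horizontal axis, V-proximal block at the left) for *Trav9d-3* and *Trav9d-4* in the WT and SKG libraries. Bars are shares and lines are 95% Wilson intervals for counting error. The block 61-51 stands at 11.6% for *Trav9d-3* and 2.84% for *Trav9d-4* in WT and at 7.67% and 1.90% in SKG, and the block 40-31 is higher for *Trav9d-4* in both.

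Among the single segments outside the V-proximal end, *Traj38* had the highest ratio in WT, with 0.831% of *Trav9d-3* and 1.98% of *Trav9d-4* joins (log2 ratio 1.25, SE 0.41). In SKG the shares were 0.706% and 1.02% (0.53, SE 0.33). *Traj18*, the segment of the invariant natural killer T cell receptor when joined to *Trav11*, held 2.83% of *Trav9d-3* and 5.29% of *Trav9d-4* joins in WT. The log2 ratio was 0.90 (SE 0.23). In SKG it held 3.53% and 4.74% (0.43, SE 0.15). *Trav9d-4* was the higher of the pair at *Traj18* in both libraries, while among unproductive sequences the ratio was -0.0024 in WT and 0.72 in SKG. *Traj33*, the segment of the mucosal-associated invariant T cell receptor when joined to *Trav1*, held between 1.42% (SKG *Trav9d-3*) and 1.81% (WT *Trav9d-4*) and the log2 ratios of 0.13 and 0.17 were smaller than their SE of 0.35 and 0.25. *Traj34* had a log2 ratio of 0.79 (SE 0.27) in WT and 0.14 (SE 0.19) in SKG. *Traj39* had one of 0.28 (SE 0.33) in WT and 0.73 (SE 0.22) in SKG, and *Traj35* 0.42 (SE 0.49) and 0.58 (SE 0.31). At the far end *Traj9* had ratios of 0.35 (SE 0.23) and 0.46 (SE 0.16), *Traj6* 0.63 (SE 0.27) and 0.10 (SE 0.19), and *Traj4* -0.18 (SE 0.20) and -0.17 (SE 0.13).

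The mean position along the array differed too. The mean *Traj* number of productive joins was 26.8 ± 16.6 (SD over sequences) for *Trav9d-3* and 24.1 ± 14.5 for *Trav9d-4* in WT, and 24.9 ± 15.7 and 23.1 ± 13.8 in SKG. A lower number lies nearer to the constant region. The difference between the genes was -2.71 in WT (SE 0.499, 95% interval -3.69 to -1.73) and -1.82 in SKG (SE 0.310, interval -2.43 to -1.21). Both passed after adjustment over 14 tests on the pair. The share of distal segments, *Traj1* to *Traj30*, was 57.3% for *Trav9d-3* and 60.7% for *Trav9d-4* in WT, a difference of 3.39 points (SE 1.61, 95% interval 0.234 to 6.54) that did not pass after adjustment. In SKG it was 62.8% and 66.0%, a difference of 3.23 points (SE 1.02, interval 1.22 to 5.24) that passed. Fisher's exact test on the sequences alone gave 3.72e-59 and 2.51e-35. It treats sequences as independent, while the factor from productive shares enlarged the variance 59.7-fold in WT and 15.6-fold in SKG. The SDs show that the spread within each gene was far larger than the gap between the genes.

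The sequences that listed *Trav9d-4* beside a gene other than *Trav9d-3*, which were left out, joined differently. In WT, 15.9% of the 18811 productive ones used *Traj51* to *Traj61* and 33.6% used *Traj1* to *Traj30*. In SKG, 9.27% of 8675 and 44.6% did. Those listing *Trav9d-4* and *Trav9-3* only had 21.4% (WT) and 10.5% (SKG) in *Traj51* to *Traj61*, and sequences listing *Trav9-3* alone had 20.8% and 14.3%. Those listing *Trav9d-4* and *Trav9-4* only had 8.26% and 9.55%, and sequences listing *Trav9-4* alone had 29.1% and 21.3%. From which gene the shared assignments came cannot be told apart here. In a further comparison, every sequence was counted that listed 1 gene of the pair, alone or beside genes outside the pair. Sequences that listed both members were not counted. The *Traj51* to *Traj61* share remained lower in *Trav9d-4*, by a difference of -6.46 points in WT (SE 0.822) and -4.73 points in SKG (SE 0.422). The distal share difference was then -1.45 points in WT and 0.194 points in SKG, and neither was beyond its error. The difference in mean *Traj* number was then -0.830 in WT (SE 0.488) and -0.768 in SKG (SE 0.297), smaller than in the sequences that listed 1 gene alone.

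**Figure D4:**
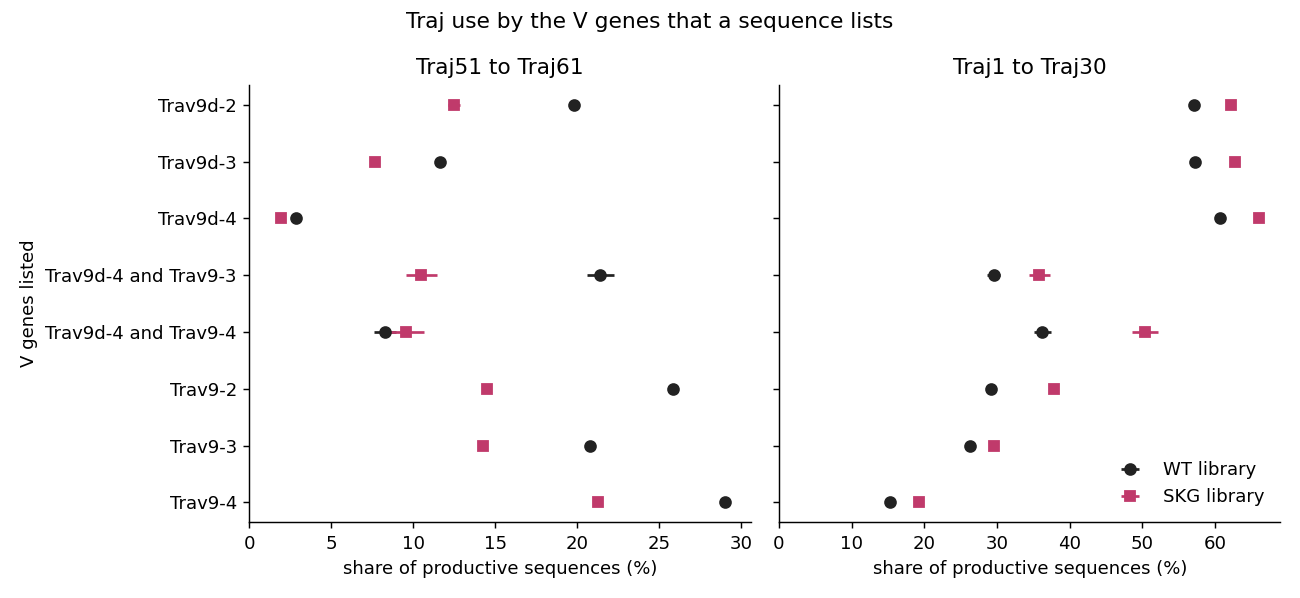
Share of productive sequences (%, horizontal axes) that used *Traj51* to *Traj61* (left) and *Traj1* to *Traj30* (right), by the V genes that a sequence lists and no others (vertical axis), for the WT and SKG libraries. Points are shares and lines are 95% Wilson intervals. Of the 8 classes drawn, *Trav9d-4* alone is the lowest for *Traj51* to *Traj61* (2.84% in WT and 1.90% in SKG), and sequences that list it with *Trav9-3* stand at 21.4% and 10.5%.

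In the SKG library both genes had a higher share of *Traj1* to *Traj30* than in the WT library. The same direction was seen for *Trav9d-2*, *Trav9-2* (29.1% in WT and 37.8% in SKG), *Trav9-3* (26.3% and 29.6%) and *Trav9-4*. The distal share was higher in SKG by 5.53 points for *Trav9d-3* (SE 1.22, 95% interval 3.14 to 7.92) and by 5.37 points for *Trav9d-4* (SE 1.46, interval 2.50 to 8.24). The gene by genotype term was 0.000918 on the log odds scale (SE 0.0881, interval -0.172 to 0.174) and did not pass. The mean *Traj* number differed by -1.91 for *Trav9d-3* (SE 0.400, interval -2.69 to -1.13) and by -1.02 for *Trav9d-4* (SE 0.430, interval -1.86 to -0.176). These 4 differences between the libraries passed the adjusted threshold. No gene by genotype term over the 6 blocks passed the threshold. For *Trav9d-3*, *Traj51* to *Traj61* was lower in SKG by a difference of -3.96 points (SE 0.721), which passed. For *Trav9d-4*, whose share there was 2.84% in WT, the difference was -0.941 points (SE 0.453), which did not pass after adjustment. With every sequence that listed *Trav9d-4* but not *Trav9d-3* it was -2.23 points (SE 0.536). *Traj21* to *Traj30* was higher in SKG by 4.28 points for *Trav9d-4* (SE 1.16), which passed, and by 2.09 points for *Trav9d-3* (SE 0.931), which did not. At *Traj1* to *Traj10* the differences were 1.21 points for *Trav9d-3* (SE 0.986) and -0.161 points for *Trav9d-4* (SE 1.26). At *Traj11* to *Traj20* they were 2.23 (SE 1.08) and 1.26 points (SE 1.32). None of these differences at *Traj1* to *Traj20* passed.

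Few single segments differed much between the libraries. For *Trav9d-3*, 2 of 42 segments (4.76%) differed at least 1.5-fold, *Traj56* (log2 ratio of SKG to WT -0.87, SE 0.24) and *Traj57* (-0.73, SE 0.27), and both were lower in SKG. *Traj52* followed at -0.52 (SE 0.31). The highest ratios of *Trav9d-3* were at *Traj27* (0.57, SE 0.25), *Traj30* (0.54, SE 0.24) and *Traj5* (0.48, SE 0.27). For *Trav9d-4*, 7 of 42 segments (16.7%) passed the fold, 2 higher (4.76%) and 5 lower (11.9%) in SKG. The highest ratios among segments with at least 1% of an arm were at *Traj21* (0.82, SE 0.33), *Traj30* (0.71, SE 0.27) and *Traj11* (0.47, SE 0.34), and the lowest at *Traj38* (-0.96, SE 0.39), *Traj50* (-0.81, SE 0.46) and *Traj34* (-0.45, SE 0.25). The sum of the absolute differences of all *Traj* shares divided by 2, here called dissimilarity, was 8.65% between the libraries for *Trav9d-3* and 8.66% for *Trav9d-4*. Between the genes it was 15.0% in WT and 11.4% in SKG, larger than that between the libraries.

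The 2 genes did not differ in how many of their sequences were productive beyond the scaled error. In WT 61.04% of *Trav9d-3* and 61.03% of *Trav9d-4* sequences were productive (difference -0.00419 points, SE 1.25). In SKG 70.1% of *Trav9d-3* and 68.7% of *Trav9d-4* sequences were (difference -1.34 points, SE 0.825). The 95% intervals of these differences ran from -2.45 to 2.45 and from -2.96 to 0.273 points. Between the libraries the productive share was higher in SKG by 9.03 points for *Trav9d-3* (SE 0.955, 95% interval 7.15 to 10.9) and by 7.69 points for *Trav9d-4* (SE 1.17, interval 5.39 to 9.98), and both passed the threshold. The gene by genotype term was -0.0631 on the log odds scale (SE 0.0734, interval -0.207 to 0.0807) and did not pass. The SKG share was the higher one at 39 of 43 segments for *Trav9d-3* and at 36 of 43 for *Trav9d-4*, by medians of 7.95 and 10.3 points. When the WT *Traj* shares were given to both libraries, the differences were 8.64 and 7.73 points. The SKG library was also the smaller one, and the part of library size in this difference was not tested.

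Single segments ranged widely around these shares. *Traj23* had the lowest productive share in all 4 arms, with 2.79% (WT *Trav9d-3*), 4.62% (WT *Trav9d-4*), 0.944% (SKG *Trav9d-3*) and 2.78% (SKG *Trav9d-4*), among segments that had any productive sequence and at least 200 sequences. For *Trav9d-3* the highest were *Traj28* (80.8%) and *Traj49* (77.9%) in WT, and *Traj22* (78.2%) and *Traj49* (77.3%) in SKG. Next to *Traj23* the lowest were *Traj5* in WT (46.1%) and *Traj38* in SKG (58.5%). For *Trav9d-4* the highest were *Traj24* (84.3%) and *Traj58* (78.5%) in WT, and *Traj44* and *Traj56* in SKG (83.4% each). *Traj58* had the lowest *Trav9d-4* share after *Traj23* in SKG, with 99 productive of 240 sequences (41.25%), against 328 of 418 in WT, so this segment rested on few sequences. In WT the lowest after *Traj23* was *Traj52* (43.8%).

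**Figure D5:**
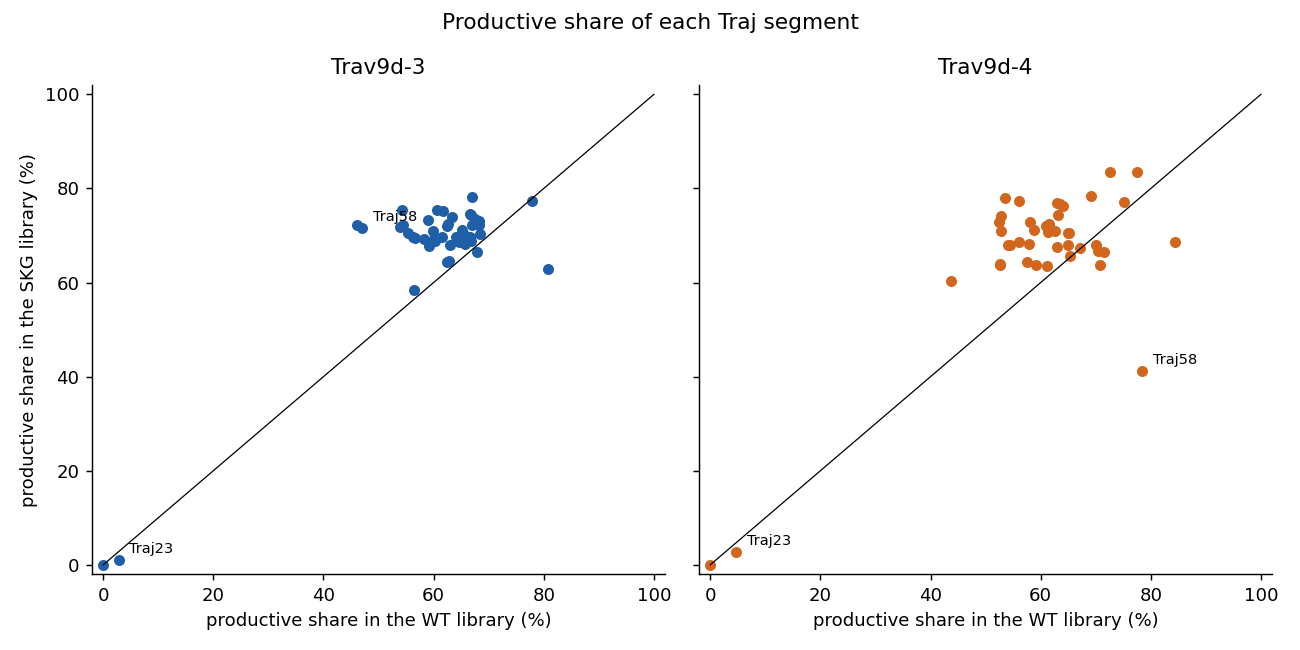
Productive share (%) of each *Traj* segment in the WT library (horizontal axis) and the SKG library (vertical axis), for *Trav9d-3* (left) and *Trav9d-4* (right), 1 point per segment with at least 50 sequences in each library. The line marks equal shares. Most points lie above it, 39 of 43 for *Trav9d-3* and 36 of 43 for *Trav9d-4* among segments with productive sequences, and *Traj23* lies near 0 in both.

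Set against the other *Trav9* genes of the same libraries, the pair was alike. Of the 15 pairs among 6 *Trav9* genes, *Trav9d-3* and *Trav9d-4* had the lowest dissimilarity in SKG and the second lowest in WT, after *Trav9-2* and *Trav9-3* (11.7%). *Trav9d-2*, which lies further upstream, was at 17.2% (WT) and 14.3% (SKG) from *Trav9d-3*, and at 24.4% and 19.9% from *Trav9d-4*. Its *Traj51* to *Traj61* share was 19.8% in WT and 12.5% in SKG, above both members of the pair, although its distal share of 57.2% and 62.2% was close to that of *Trav9d-3* (57.3% and 62.8%). *Trav9-4*, nearest to the *Traj* array, was the least like *Trav9d-4*, at 50.3% and 47.7%, with a distal share of 15.2% in WT and 19.2% in SKG. Against *Trav9d-3*, the share of segments past the 1.5-fold difference in WT was 34.9% for *Trav9d-4*, 46.5% for *Trav9d-2*, 67.4% for *Trav9-2*, and 72.1% for each of *Trav9-3* and *Trav9-4*. In SKG it was 19% for *Trav9d-4*, 28.6% for *Trav9d-2*, 66.7% for *Trav9-2*, 73.8% for *Trav9-3* and 78.6% for *Trav9-4*.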

How the data were processed

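*Trav9* amplicons from 1 WT and 1 SKG sample of pre-selection DP thymocytes were used, and the *Trav11* and *Trav19* amplicons were not. Per the labels and the study's methods, the authors assembled the paired reads into clonal sequences (MiXCR), cut off the primers (cutadapt 1.13), dropped identical sequences and then ran IMGT/HighV-QUEST at its defaults for the V and J assignment. The deposited lists give a functionality class, V and J for each distinct sequence, with no read counts. Deduplication evens out abundant rearrangements and keeps copies that differ by an error, so sequences are not independent.

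Shares were counted over productive sequences. They were compared by Fisher's exact test and by a quasi-binomial comparison, whose variance was scaled by a dispersion factor. That factor is the Pearson statistic, divided by its degrees of freedom, of a logistic fit to productive shares with segment and arm terms over 44 *Traj* segments. The factor comes from productive shares and may be too small for *Traj* shares. P-values were adjusted by Benjamini-Hochberg over 14 tests, or over 30 for blocks of segments, and the threshold was 0.05. Intervals of differences are not adjusted. Ratios needed 50 productive sequences in each arm. Segments were named by a fixed rule: the 3 most used per arm, the 3 highest and 3 lowest ratios per comparison among segments with at least 1% of an arm, *Traj18*, *Traj33*, both ends of the array, and the 2 highest and 2 lowest productive shares per arm. *Traj53* and *Traj52*, which also met it, complete the V-proximal block. The genes, segments and tests were chosen with earlier results of these data known. Functions were tested on simulated data. Python 3.11.15, pandas 2.3.3, scipy 1.17.1, statsmodels 0.14.6 and matplotlib 3.10.9 were used. Other classes, V and J assignment rules, boundaries, minima and folds were tried.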

Additional observations from a re-analysis of the deposited data

How the results depend on the processing

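No paired analysis was possible because there was 1 library per genotype, and no replicate could be left out. Of 248 values under alternatives, 201 kept their direction and their side of the threshold or stayed within their error. Of these, 29 came from requiring exactly 1 listed allele, which every sequence already met, so they could not change. Another 31 came from taking the first-listed *Traj* gene and 26 from the most frequent allele, settings that changed very few sequences. The lower and upper ranges of identifiers gave 29 and 26 more. These ranges are parts of the same libraries, so they are no independent check. The lower share of *Traj51* to *Traj61* in *Trav9d-4* passed an unadjusted p of 0.05 under every alternative run in both libraries. A further setting counted every sequence that lists the gene but not the other member of the pair. The difference of *Trav9d-4* minus *Trav9d-3* then became -1.45 points (WT) and 0.194 points (SKG) for the distal share. It became -0.830 (WT) and -0.768 (SKG) for the mean *Traj* number. For the productive share it became 0.308 (WT) and -1.59 points (SKG, now past an unadjusted threshold). For *Trav9d-4*, SKG minus WT became -1.84 for the mean *Traj* number and -2.23 points for *Traj51* to *Traj61*, both past an unadjusted threshold. The gene by genotype term for *Traj51* to *Traj61* became -0.122, the dissimilarity of the genes 14.4% (WT) and 10.6% (SKG), that of the libraries for *Trav9d-4* 9.20%, and the number of *Trav9d-4* per *Trav9d-3* sequence 0.640 and 0.573.

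With unproductive sequences only, these differences lost their unadjusted call: the WT distal share of the genes (3.83 points), the distal share of SKG minus WT (2.65 for *Trav9d-3*, 3.33 for *Trav9d-4*), the mean *Traj* number of SKG minus WT for *Trav9d-4* (-0.533) and its *Traj51* to *Traj61* share (-0.933). The latter was -0.907 with the upper range of identifiers and -0.938 with the most frequent allele. Unproductive dissimilarities were 15.4% and 11.9% between the genes (WT, SKG) and 10.5% and 11.9% between the libraries (*Trav9d-3*, *Trav9d-4*). With all classes they were 13.5%, 10.9%, 8.31% and 7.64%. The SKG ratio of the genes was 0.524 and 0.502 in these settings. With distal segments ending at *Traj20*, the distal difference was 1.47 points between the genes in SKG and 1.10 points between the libraries for *Trav9d-4*, and the gene by genotype term was -0.0957, against -0.0721 with *Traj40* and -0.00957 with the upper range of identifiers. In that range the WT productive difference was 0.0276 points, and dissimilarities were 15.3% (genes, WT) and 9.01% (libraries, *Trav9d-4*), while the lower range gave 14.7% for the WT genes.

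Numbers of segments past the fold moved with the rule. Between the genes they were 8 in WT with all classes, 6 (WT) and 5 (SKG) at a fold of 2, and 5 in SKG with a minimum of 200 sequences. Between the libraries they were 5 (*Trav9d-3*) and 12 (*Trav9d-4*) for unproductive sequences, 4 for *Trav9d-3* with all classes, 5 for *Trav9d-3* with the lower range of identifiers, and 0 for each gene at a fold of 2.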
